A study of Mus musculus with 12 samples.

Results

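Receptors for the Fc part of immunoglobulin G and the proteins that carry their signal were followed across age and demyelination in mouse spinal cord white matter. The 9 members were chosen by name: the Fcγ receptors Fcgr1, Fcgr2b, Fcgr3 and Fcgr4, the signalling chain Fcer1g, the neonatal receptor Fcgrt, the kinase Syk, and the phosphatases Inpp5d and Ptpn6. Each matched 1 row of the count table, so 9 of 46078 gene identifiers were followed, and all 9 passed the filter on low counts that left 15866 genes for testing.

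The tissue was spinal cord white matter of C57Bl6 mice, cut out of frozen sections under the microscope with a laser (laser capture microdissection). There were 4 groups of 3 libraries each, naïve and injured, from young and from middle-aged animals. Injured mice had received lysolecithin, a detergent-like lipid that strips myelin from axons, in the ventrolateral white matter, and their tissue was taken 72 h later (day 3). Naïve mice had no lesion, and an injection without lysolecithin was not among the groups. In the study's methods the young mice were 6 weeks and the middle-aged mice 8 months old, ages that the labels give in words only. The RNA of 5 mice went into each library, so the replicate is the pool, and p-values measure the spread between pools and not between single mice.

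Fcγ receptors let phagocytes sense antibody bound to debris or microbes. FcγRI, FcγRIII and FcγRIV, the products of Fcgr1, Fcgr3 and Fcgr4, pair with the γ chain encoded by Fcer1g, whose activation motif recruits the kinase Syk and starts engulfment and cytokine release. FcγRIIB, the product of Fcgr2b, carries an inhibitory motif instead and recruits the lipid phosphatase SHIP-1, encoded by Inpp5d, while SHP-1, encoded by Ptpn6, removes phosphate from signalling proteins. Microglia and macrophages carry both arms, and the balance between them sets how strongly a cell answers immune complexes. The neonatal receptor FcRn, encoded by Fcgrt, stands apart from this scheme: it binds immunoglobulin G inside the cell and returns it to the surface.

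The genes of 4 members lie together on mouse chromosome 1 in GRCm38. Fcgr2b (chr1:170958617-170976547, minus strand), Fcgr4 (chr1:171018920-171029761, plus strand), Fcgr3 (chr1:171051174-171064935, minus strand) and Fcer1g (chr1:171229572-171234365, minus strand) fall within 275749 bases, and 21412 bases separate Fcgr4 from Fcgr3. Inpp5d (chr1:87620312-87720507, plus strand) is on the same chromosome, Fcgr1 is at chr3:96282909-96293969 (minus strand), Ptpn6 at chr6:124720707-124738714 (minus strand), Fcgrt at chr7:45092990-45103851 (minus strand) and Syk at chr13:52583173-52648792 (plus strand). Fcgr2b and Fcgr3 are close relatives in sequence. Of the 31-base words in the exons of Fcgr3, 13.4% also occurred in another gene, and all of these were shared with Fcgr2b, so a minor part of the reads of either could have been counted for the other or dropped. The exons of Ptpn6 shared 5.78% of their words with Gm20531, a gene on the opposite strand that had between 0 and 31 counts per pool.

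The stretches before the start sites are shown because 8 of the 9 members were called higher after injury at both ages. Over all genes tested, 28.3% were called higher in young and 29.2% in middle-aged mice. The myeloid factor PU.1 is a known regulator of Fc receptor genes, so the 250 bases before each RefSeq start were searched on both strands for GAGGAA, a core of PU.1 motifs. The 9 members had 11 such windows. GAGGAA occurred before 5 members (Fcgr1, Fcgr3, Fcgr4, Syk and Inpp5d) and not before Fcgr2b, Fcer1g, Ptpn6 and Fcgrt. Over all 32817 mouse windows of that length, 23.3% held it. A member counted when any of its windows held a match, so this count and the share per window are unlike measures. The Syk window that starts at chr13:52583187 held no match. A match is only a description of the letters: no binding was measured, and the absence of these letters from a window says nothing about the factor. Members with and without the letters were among those called higher after injury. Below are 150 bases before a RefSeq start, free of annotated exons, read 5′ to 3′ on the strand of the gene from RefSeq on GRCm38.p6, with the matches on either strand in capitals. The stretch of Fcgr3 lies within the gene, before a start inside it, and the others lie just outside their genes. The first 4 are members with a match, Fcer1g and Ptpn6 are members without one that were called higher after injury at both ages, and Fcgrt is the member without an injury call.
Fcgr1 (chr3:96293970-96294119, minus strand): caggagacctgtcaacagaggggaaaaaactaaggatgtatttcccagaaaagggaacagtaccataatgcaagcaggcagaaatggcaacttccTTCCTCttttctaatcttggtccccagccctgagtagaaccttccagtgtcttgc
Fcgr3 (chr1:171059404-171059553, minus strand): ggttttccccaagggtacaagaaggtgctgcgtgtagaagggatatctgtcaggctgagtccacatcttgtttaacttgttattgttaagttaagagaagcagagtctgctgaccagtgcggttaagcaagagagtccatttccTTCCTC
Fcgr4 (chr1:171018770-171018919, plus strand): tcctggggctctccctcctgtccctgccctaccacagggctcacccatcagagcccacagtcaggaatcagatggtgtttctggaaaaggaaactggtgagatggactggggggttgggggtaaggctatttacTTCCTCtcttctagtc
Inpp5d (chr1:87620162-87620311, plus strand): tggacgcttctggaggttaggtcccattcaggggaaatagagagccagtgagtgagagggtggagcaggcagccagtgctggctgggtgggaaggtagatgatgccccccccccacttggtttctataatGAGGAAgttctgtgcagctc
Fcer1g (chr1:171234366-171234515, minus strand): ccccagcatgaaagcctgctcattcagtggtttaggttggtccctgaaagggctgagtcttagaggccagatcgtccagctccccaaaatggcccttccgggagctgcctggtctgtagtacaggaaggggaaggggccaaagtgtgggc
Ptpn6 (chr6:124738715-124738864, minus strand): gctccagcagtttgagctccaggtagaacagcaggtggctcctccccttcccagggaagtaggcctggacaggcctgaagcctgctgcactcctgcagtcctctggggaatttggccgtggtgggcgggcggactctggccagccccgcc
Fcgrt (chr7:45103852-45104001, minus strand): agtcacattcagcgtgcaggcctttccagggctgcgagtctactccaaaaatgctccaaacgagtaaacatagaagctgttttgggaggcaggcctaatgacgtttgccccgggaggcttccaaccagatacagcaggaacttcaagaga

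Library totals ran from 9834447 to 12807437 counts, so the floor of detection of 3 counts lay between 0.234 and 0.305 CPM, the counts scaled to one common library total. Counts of pools of the same group differed by 7.48 times or more what counting error alone gives (chi-square per degree of freedom), so no 2 pools were the same library deposited again. Replicate 2 of the middle-aged naïve group stood apart from its group, at 35.7 and 32.7 on this measure against 12.4 for the other pair, and member values that it moved are also given without it. Oligodendrocyte markers summed to at least 53009 CPM in naïve pools and were lower after injury in 6 of 6 genes at both ages. Neuron markers were present too, at sums of 681 to 1976 CPM in young naïve and 1167 to 1239 CPM in middle-aged naïve pools. Whether grey matter was cut out with the white matter was not tested.

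In young mice, injury raised both arms of the Fc receptor system. All 3 activating receptors, the γ chain, Syk, the inhibitory receptor and both phosphatases were higher in injured than in naïve white matter, that is 8 of 9 members by edgeR's quasi-likelihood test at an adjusted p under 0.05, and the exception was Fcgrt. Over all genes tested, 28.3% were called higher and 26.3% lower in this comparison. The median log2 fold change of the 9 members was 4.15, against 0.00 for all genes. In middle-aged mice 8 of 9 members were again higher, with 29.2% of all genes called higher and 29.3% lower, and the median was 3.62 against -0.03. These 8 members correlated over the 12 pools with Pearson's r of at least 0.90 with each other, a description in which the pools share the injury contrast.

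**Figure D1:**
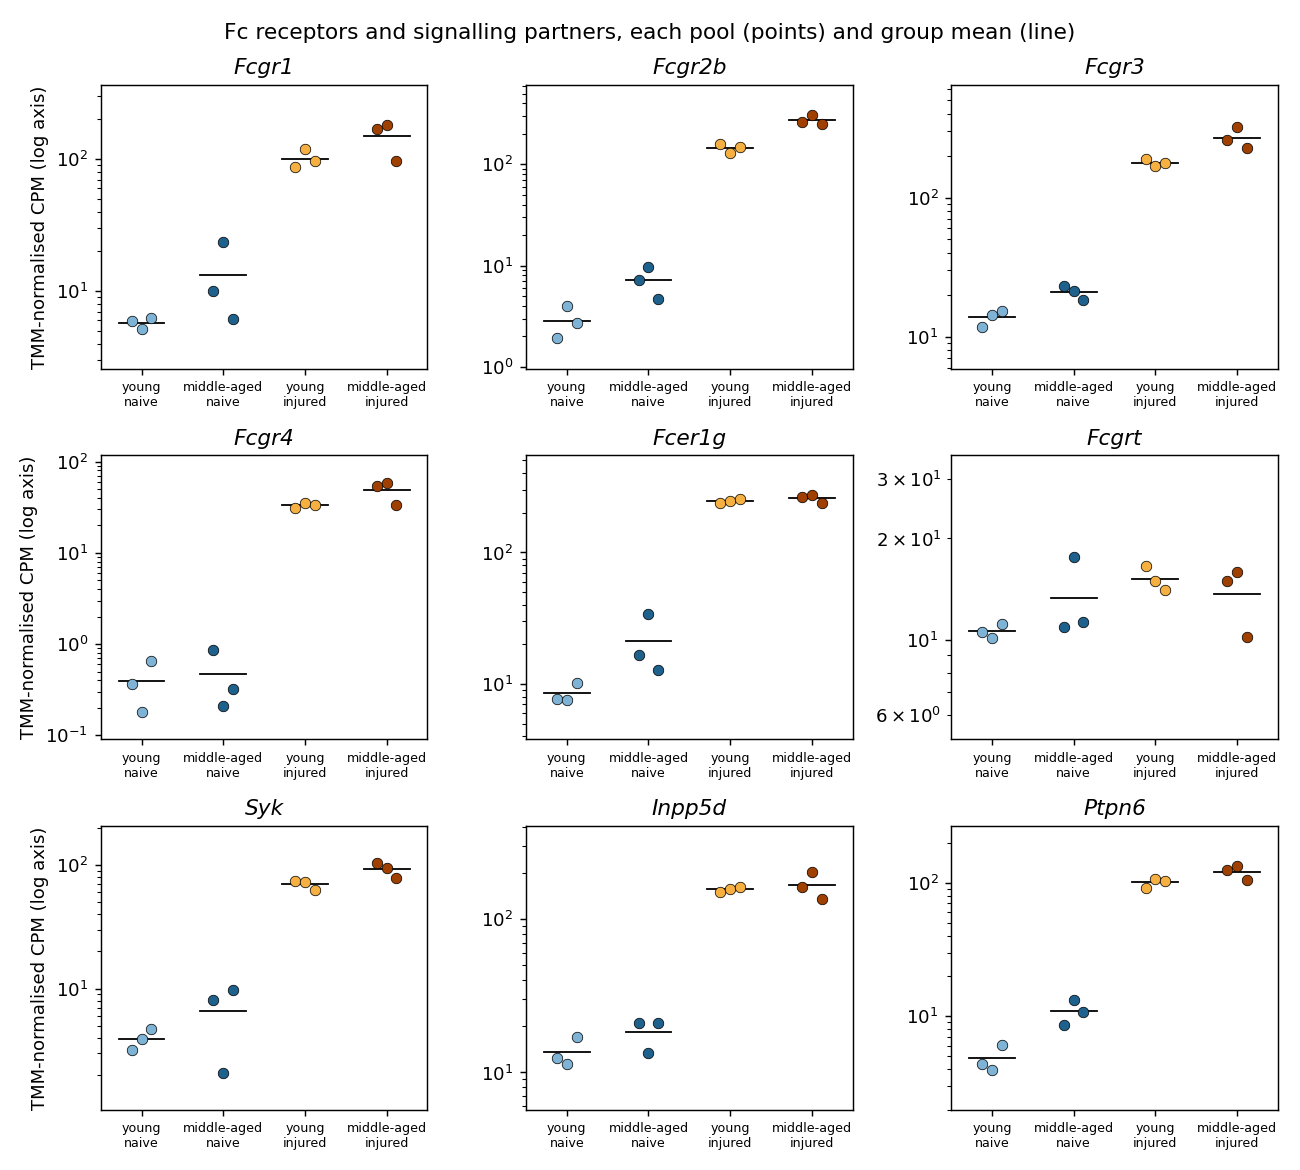
Each panel plots 1 member in TMM-normalised CPM on a log axis, with a point for each of the 3 pools of a group and a line at the group mean. In 8 panels every injured pool lies above every naïve pool of the same age, as for 35.0% of all genes tested in young and 31.5% in middle-aged mice, and in the panel of Fcgrt the 4 groups lie between 10.2 and 17.6 CPM.

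Among the activating receptors, Fcgr4, which binds mouse IgG2a and IgG2b, had the largest fold change. It was close to the floor in naïve tissue, with 4, 2 and 6 counts in the young and 9, 2 and 4 counts in the middle-aged pools. Injured tissue gave 424, 449 and 449 counts in young and 642, 730 and 386 counts in middle-aged pools. All injured pools lay far above all naïve pools, and the injured groups overlapped between ages. The fold change was 84.0 in young mice (log2 6.39, SE 0.39, adjusted p = 8.12e-09) and 102 in middle-aged mice (log2 6.67, SE 0.38, adjusted p = 3.59e-09). Its size rests on few naïve reads: the 2 counts in middle-aged naïve replicate 2 allow a level between 0.0234 and 0.698 CPM by a 95% exact binomial interval, which covers counting error only. With 1 pool left out, the log2 fold change ran from 6.04 to 6.88 in young mice. In middle-aged mice it was 7.42 without naïve replicate 1, the pool with 9 counts, and 6.38 without naïve replicate 2.

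Fcgr1 encodes the high-affinity receptor that also binds monomeric IgG2a. Its level was 5.92, 5.17 and 6.24 CPM in young naïve and 86.5, 118 and 96.5 CPM in young injured pools. Middle-aged naïve pools held 10.1, 23.6 and 6.16 CPM, and middle-aged injured pools 169, 182 and 96.3 CPM. Every injured pool exceeded every naïve pool, replicate 2 was the highest middle-aged naïve pool, and replicate 3 was the lowest middle-aged injured pool. The log2 fold change by injury was 4.12 in young (SE 0.40, adjusted p = 8.51e-07) and 3.51 in middle-aged mice (SE 0.38, adjusted p = 1.96e-06). Without middle-aged naïve replicate 2 the latter was 4.22.

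Fcgr3, the low-affinity activating receptor, was the most abundant Fcγ receptor per kilobase of exon in all 4 groups. Young naïve pools held 11.8, 14.4 and 15.3 CPM and middle-aged naïve pools 23.2, 21.2 and 18.3 CPM. After injury the pools held 189, 168 and 177 CPM in young and 258, 323 and 227 CPM in middle-aged mice. The 4 groups did not overlap: both injured groups lay above both naïve groups, and in each pair the older group was the higher. The fold change by injury was the same at both ages to 3 digits, 12.9, with an adjusted p of 3.96e-10 in young and 3.49e-10 in middle-aged mice.

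The γ chain Fcer1g, without which the activating receptors neither reach the surface nor signal, was the highest member per kilobase in every group. It rose from 7.74, 7.61 and 10.1 CPM to 239, 245 and 254 CPM in young mice. In middle-aged mice it rose from 16.6, 33.9 and 12.7 CPM to 265, 273 and 236 CPM. The naïve groups did not overlap between ages, whereas the injured groups did. The log2 fold change was 4.86 in young (SE 0.29, adjusted p = 7.27e-09) and 3.62 in middle-aged mice (SE 0.27, adjusted p = 4.91e-08), or 4.15 without middle-aged naïve replicate 2.

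Syk, the tyrosine kinase docked by the γ chain, had 35, 43 and 44 counts in young naïve and 1007, 936 and 829 counts in young injured pools. Middle-aged naïve pools had 85, 20 and 121 counts and middle-aged injured pools 1248, 1189 and 909 counts. Replicate 2, the highest middle-aged naïve pool for Fcgr1 and Fcer1g, was the lowest of all 12 pools for Syk. The log2 fold change was 4.15 in young (SE 0.36, adjusted p = 2.80e-07) and 3.77 in middle-aged mice (SE 0.34, adjusted p = 3.69e-07), or 3.37 without middle-aged naïve replicate 2.

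The inhibitory receptor Fcgr2b had a larger fold change than any member other than Fcgr4. Its counts were 21, 44 and 25 in young naïve pools and 75, 92 and 59 in middle-aged naïve pools. After injury they were 2158, 1674 and 1970 in young and 3180, 3819 and 2882 in middle-aged pools. As for Fcgr3, the 4 groups followed each other without overlap. The fold change was 50.5 in young mice (log2 5.66, SE 0.26, adjusted p = 6.49e-10) and 38.3 in middle-aged mice (log2 5.26, SE 0.25, adjusted p = 6.43e-10).

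Inpp5d, the lipid phosphatase through which FcγRIIB acts, rose least of the 8, from between 126 and 158 counts to between 2030 and 2133 counts in young mice and from between 127 and 262 to between 1568 and 2533 counts in middle-aged mice. The fold change was 11.5 in young (log2 3.52, SE 0.21, adjusted p = 6.96e-09) and 8.98 in middle-aged mice (log2 3.17, SE 0.21, adjusted p = 1.30e-08). Ptpn6 rose from 48, 44 and 57 counts to 1253, 1380 and 1367 counts in young mice, a fold change of 20.9 (log2 4.39, SE 0.20, adjusted p = 4.95e-10). In middle-aged mice it rose from 90, 126 and 134 counts to 1509, 1667 and 1220 counts, a fold change of 11.2 (log2 3.48, SE 0.18, adjusted p = 2.03e-09). For both phosphatases every injured pool lay above every naïve pool.

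Fcgrt was the member without an injury call. Young naïve pools held 10.6, 10.2 and 11.2 CPM and young injured pools 16.5, 15.0 and 14.1 CPM, and every injured pool lay above every naïve pool. The log2 difference of 0.51 (SE 0.22, 95% interval 0.04 to 0.99) had an adjusted p of 0.0642 by edgeR, and passed the threshold with library totals as the only scaling (0.71, adjusted p = 0.0122) and with only the 6 pools compared (0.51, adjusted p = 0.0115). Middle-aged naïve pools held 10.9, 17.6 and 11.3 CPM and middle-aged injured pools 14.9, 15.9 and 10.2 CPM. These overlapped, and the log2 difference was 0.05 (95% interval -0.43 to 0.52, adjusted p = 0.871). The 17.6 CPM was that of replicate 2, and without this pool the difference was 0.30 (adjusted p = 0.203).

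**Figure D2:**
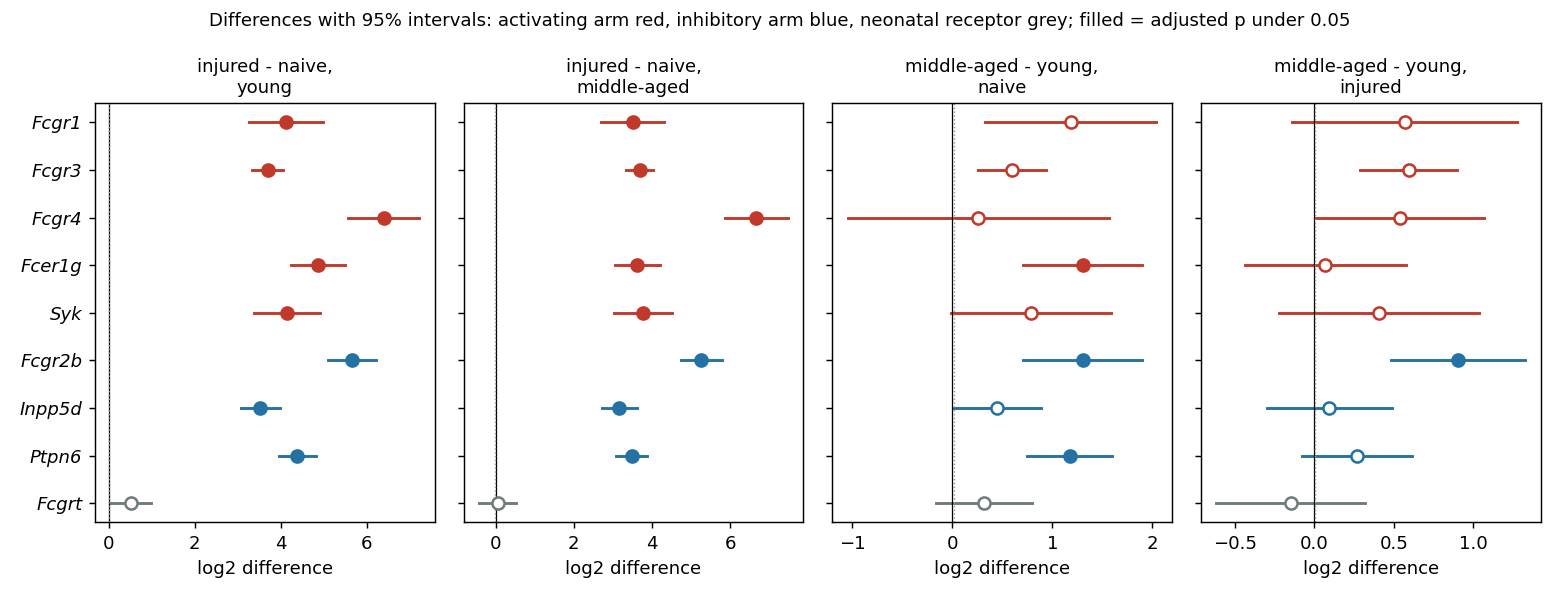
Points are log2 differences from the edgeR fit with 95% intervals, for injury in young and middle-aged mice and for age in naïve and injured mice, each panel with its own scale. Filled points have an adjusted p under 0.05 over all genes tested, and the dotted line is the median of all genes: 8 members are filled in each injury panel, 3 in the panel of age in naïve mice and 1 in that of age in injured mice.

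Per kilobase of exon, the order of the members changed with injury only below the top of the list. Fcer1g and Fcgr3 came first and second in every group, at 9.71 ± 1.61 and 7.96 ± 1.06 CPM per kilobase in young naïve mice (SD, n = 3), where their pools overlapped, and at 282 ± 8.62 and 103 ± 6.14 in young injured mice, where they did not. Fcgrt took rank 3 in both naïve groups, where it overlapped with Fcgr1, the next in the order, in middle-aged mice. It came last in both injured groups, and in young mice its pools (6.70 to 7.86) overlapped with those of Syk (6.67 to 7.90). Fcgr2b took rank 7 in both naïve groups, where it overlapped with Syk, the next in the order. In injured tissue it took rank 6 in young mice, overlapping with Fcgr4, and rank 4 in middle-aged mice, overlapping with Fcgr1 and Ptpn6. With the length of the longest coding transcript in place of all exons, a setting chosen after the data were seen, Fcgr2b took rank 4 in young injured and rank 3 in middle-aged injured mice.

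The question put to these genes was how the activating receptors compare with the inhibitory one. The 4 Fcγ receptor transcripts were therefore taken as shares of their summed level per kilobase in each pool. Fcgr2b made up between 3.41% and 6.19% of this sum in young naïve pools and between 5.82% and 7.20% in middle-aged naïve pools. In injured pools its share was between 11.6% and 14.1% in young and between 14.8% and 18.1% in middle-aged mice. Fcgr4 moved likewise, from between 0.721% and 4.22% over the naïve pools to between 11.2% and 14.4% over the injured pools. Fcgr3 kept the largest share, at 70.0% to 74.6% in young naïve and 50.3% to 56.1% in young injured pools, which did not overlap. In middle-aged mice its share was 52.7% to 75.4% in naïve and 49.2% to 55.1% in injured pools. These overlapped through replicate 2, the lowest naïve pool. The share of Fcgr1 overlapped between all groups and was highest, at 39.4%, in middle-aged naïve replicate 2. The share of Fcgr2b was also taken with the length of the longest coding transcript, the setting chosen after the data were seen. It was then 4.56% to 8.06% in young naïve and 7.58% to 9.82% in middle-aged naïve pools. In injured pools it was 15.6% to 18.4% in young and 19.4% to 23.2% in middle-aged mice. With that length Fcgr4 had a smaller share than Fcgr2b in the injured pools, at 10.2% to 11.8% and 8.77% to 11.4%.

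**Figure D3:**
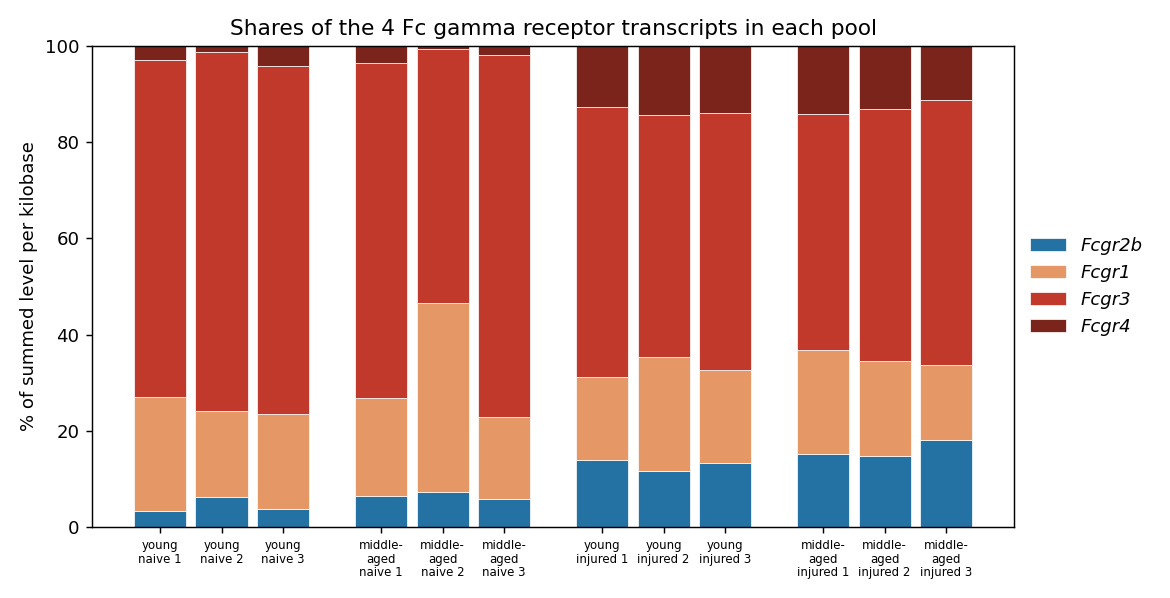
Each bar is 1 pool, split into the percent of the summed level per kilobase of exon contributed by the 4 Fcγ receptor transcripts. The inhibitory Fcgr2b stays at or below 7.20% in the naïve pools and lies between 11.6% and 18.1% in the injured pools.

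A ratio of 2 genes within a library does not depend on how libraries are scaled, so the counts of each activating receptor were also divided by those of Fcgr2b. Fcgr3 had 6.14, 3.61 and 5.68 counts per Fcgr2b count in young naïve and 3.23, 2.20 and 3.88 in middle-aged naïve pools. Injured pools had 1.20, 1.30 and 1.20 in young and 0.977, 1.06 and 0.913 in middle-aged mice. Every injured pool was below every naïve pool, and the log2 ratio was lower by a mean of 1.81 over the ages (-1.81, 2-sided exact permutation test within ages, p = 0.005, adjusted over 3 ratios 0.0075), where 0.005 is the smallest p the 400 arrangements allow. For Fcgr1 the ratio was between 1.30 and 3.10 in naïve and between 0.387 and 0.912 in injured pools, again without overlap, and the log2 ratio differed by -1.62 (exact permutation p = 0.005, adjusted 0.0075). Fcgr4 went the other way, at 1.06 (exact permutation p = 0.045, adjusted 0.045). Its ratio ran from 0.0217 to 0.240 in naïve and from 0.134 to 0.268 in injured pools, which overlap. The naïve values rest on 2 to 9 Fcgr4 counts, and the call was lost in 9 of 12 repeats with 1 pool left out, with differences between 0.72 and 1.30.

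**Figure D4:**
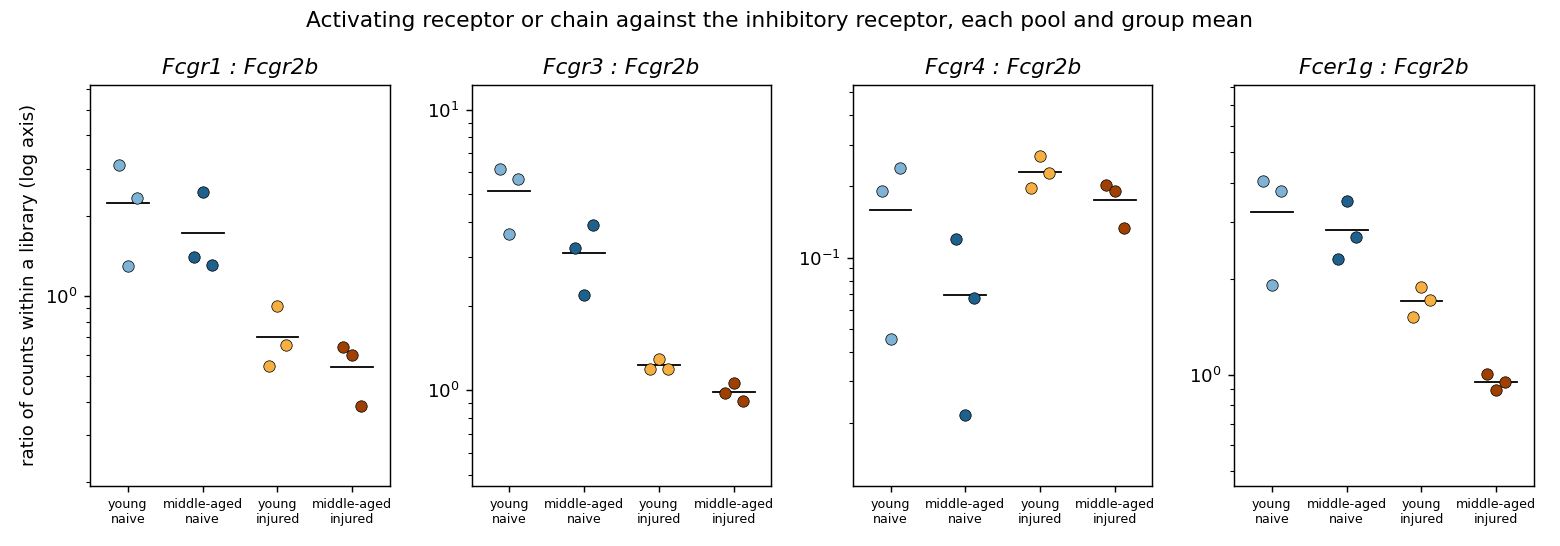
Points are the ratio of the counts of an activating receptor, or of the γ chain, to those of Fcgr2b in each of the 3 pools of a group, on a log axis, with a line at the group mean. For Fcgr1 and Fcgr3 all injured pools lie below all naïve pools, and for Fcgr3 and Fcer1g the middle-aged injured pools lie below the young injured pools.

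Between ages the ratios are given without a test. In injured tissue 1.54% of all genes tested had a larger log2 difference with age than Fcgr2b, so most would have a lower ratio to it. In injured mice, Fcgr3 per Fcgr2b was lower in all 3 middle-aged pools than in all 3 young pools, with the values above. The γ chain showed the same order, with 1.51, 1.89 and 1.71 Fcer1g counts per Fcgr2b count in young and 1.003, 0.896 and 0.950 in middle-aged injured pools. Fcgr1 per Fcgr2b overlapped between the ages in injured tissue, at 0.546, 0.912 and 0.651 in young and 0.640, 0.598 and 0.387 in middle-aged pools. Fcgr4 per Fcgr2b overlapped as well, at 0.196 to 0.268 and 0.134 to 0.202. In naïve mice the ratios of Fcgr1, Fcgr3, Fcgr4 and Fcer1g to Fcgr2b all overlapped between ages.

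The inhibitory receptor, the γ chain and SHP-1 transcripts were higher with age before any lesion. In naïve white matter 3 of 9 members were called higher in the older mice and none lower, where 2.02% of all genes were called higher and 1.78% lower. Fcgr2b differed by 1.30 on the log2 scale (SE 0.28, adjusted p = 0.0194), Fcer1g by 1.31 (SE 0.28, adjusted p = 0.0195) and Ptpn6 by 1.17 (SE 0.20, adjusted p = 0.00521). All 3 middle-aged pools lay above all 3 young pools for each of them, as for 7.77% of all genes tested. The call for Fcgr2b was lost without young naïve replicate 1 (adjusted p = 0.0872) or replicate 3 (0.0617), and that for Fcer1g without young naïve replicate 1 (0.0795) or replicate 2 (0.0886). Without middle-aged naïve replicate 2, Fcer1g differed by 0.79 (adjusted p = 0.0140), Fcgr2b by 1.03 (adjusted p = 0.0479) and Ptpn6 by 1.02 (adjusted p = 0.0114). When only the 6 naïve pools were fitted, none of the 3 passed, with adjusted p-values of 0.241, 0.200 and 0.175. Pan-myeloid markers moved with these members: 3 of 7 (Itgam, Ptprc and Laptm5) were called higher with age in naïve tissue, with a mean log2 difference of 0.71 over the list. Of 6 microglia markers, Gpr34 and Siglech were called higher, and the summed level was 161 to 215 CPM in young and 238 to 393 CPM in middle-aged naïve pools. Oligodendrocyte markers were lower, with 3 of 6 called and sums of 86699 to 101953 CPM in young and 53009 to 60301 CPM in middle-aged naïve pools. Of 6 monocyte markers, 5 were not called. The other, Ccr2, was called higher, from 0 counts in the young to between 1 and 11 in the middle-aged naïve pools. The sum of the 6 overlapped between the ages, at 87.9 to 99.7 CPM in young and 83.7 to 113 CPM in middle-aged naïve pools. The part of these cells in the age calls was not tested beyond the scaling to myeloid markers. With libraries scaled to those markers, no call was left for the 3 members, and Fcgr2b differed by 0.66 (adjusted p = 0.135), Fcer1g by 0.65 (adjusted p = 0.109) and Ptpn6 by 0.47 (adjusted p = 0.173).

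Fcgr3 did not overlap between the naïve ages either, at a log2 difference of 0.60, but its adjusted p of 0.0525 missed the threshold by edgeR and passed it by DESeq2 (0.60, adjusted p = 0.0195). For Fcgr1 the difference was 1.18 (adjusted p = 0.125), and 0.48 without middle-aged naïve replicate 2. Syk differed by 0.78 (adjusted p = 0.282) and, without that same pool, by 1.19 (adjusted p = 0.00460). Inpp5d (0.45), Fcgrt (0.32) and Fcgr4 (0.26) were not called and overlapped between the ages.

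In injured tissue, the inhibitory receptor was the member called between ages. Fcgr2b was 1.87 times as high in middle-aged as in young injured white matter (log2 0.91, SE 0.20, 95% interval 0.48 to 1.33, adjusted p = 0.0408), which makes 1 of 9 members where 0.240% of all genes were called higher and 0.908% lower. The pools did not overlap, as in 11.1% of all genes tested, at 158, 130 and 148 CPM in young and 264, 305 and 249 CPM in middle-aged mice. The call was lost whichever of the 6 injured pools was left out, with log2 differences between 0.82 and 0.98 and adjusted p-values between 0.0707 and 0.226. Fcgr3 differed by 0.59 without overlap (SE 0.14, adjusted p = 0.0671), and passed by DESeq2 (0.61, adjusted p = 0.00901). None of the 7 pan-myeloid markers was called between the injured groups by edgeR (4 had an unadjusted p under 0.05), at a mean log2 difference of 0.30. Relative to them Fcgr2b differed by 0.71 (SE 0.31, adjusted p = 0.569), where 0.0252% of all genes were called higher and 0.397% lower. Monocyte markers were higher in all 3 middle-aged injured pools for 3 of 6 genes, without an edgeR call: Ccr2 had 641 to 1031 counts in young and 1306 to 1968 in middle-aged injured pools (log2 1.02, adjusted p = 0.0821), Chil3 251 to 313 and 396 to 477 counts (log2 0.74, adjusted p = 0.121), and Plac8 58 to 79 and 86 to 197 counts (adjusted p = 0.242). The mean log2 CPM of the 6 monocyte markers was 5.10 to 5.35 in young and 5.40 to 6.07 in middle-aged injured pools, while Vcan was called lower (-0.75, adjusted p = 0.0441). Oligodendrocyte markers were called lower in 5 of 6 genes. Their part in the Fcgr2b difference was not tested. Fcer1g, in contrast to Fcgr2b, had a log2 difference of 0.07 (95% interval -0.44 to 0.58, adjusted p = 0.995), and Inpp5d one of 0.09 (95% interval -0.30 to 0.49). The comparisons of this and the preceding paragraphs share samples, since each group enters an injury and an age contrast.

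Whether injury acted differently at the 2 ages was asked with the difference of the injury effects. None of the 9 members was called by edgeR or by DESeq2, where 0.139% of all genes (22) were called by edgeR, and 2 members had an unadjusted p under 0.05 by edgeR. These were Fcer1g, whose log2 injury effect was lower by 1.24 in middle-aged mice (-1.24, SE 0.37, unadjusted p = 0.00439, adjusted p = 0.212), and Ptpn6, at -0.91 (SE 0.26, unadjusted p = 0.00330, adjusted p = 0.200). Without middle-aged naïve replicate 2 the difference was -0.72 for Fcer1g (adjusted p = 0.136) and -0.75 for Ptpn6 (adjusted p = 0.202). Without a filter on low counts Fcer1g was called, at -1.23 (adjusted p = 0.00333). For the inhibitory receptor the difference was -0.40, with a 95% interval from -1.13 to 0.33, and -0.13 without that pool.

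In bulk tissue, more cells of a type and more RNA per cell cannot be told apart. Markers of the cells that carry these receptors moved with them: all 7 pan-myeloid markers (Itgam, Csf1r, Aif1, Ptprc, Laptm5, Spi1 and Cd53) were higher after injury at both ages, with a mean log2 change of 3.95 in young and 3.53 in middle-aged mice. Their summed level ran from 89.6 to 113 CPM (young) and 126 to 151 CPM (middle-aged) in naïve pools, and from 1141 to 1188 CPM (young) and 1164 to 1503 CPM (middle-aged) in injured pools. All 6 monocyte markers rose at both ages, from at most 113 CPM summed in naïve pools to at least 1187 in injured pools, and Plac8 was at 0 in all naïve pools. Of 6 microglia markers, 3 rose and 1 fell in young mice and 2 rose and 2 fell in middle-aged mice, with summed levels of 161 to 393 CPM in naïve and 438 to 608 CPM in injured pools. Markers of other cells that use Fc receptors were low, and some moved with the members. Neutrophil markers summed to at most 0.968 CPM in naïve and 2.26 to 4.11 CPM in injured pools, with Retnlg, S100a8 and Mpo at 0 counts in all naïve pools. B and plasma cell markers summed to 0.105 to 1.51 CPM in naïve and 1.996 to 3.38 CPM in injured pools. Natural killer cell markers were at most 1.89 CPM, the value of middle-aged naïve replicate 2, against at most 0.384 in the other naïve pools and 0.0799 to 1.61 in injured pools. Mast cell markers summed to 9.34 CPM in that same pool, through Hdc with 89 counts, and to at most 1.29 CPM in the other 11, with Mcpt4, Tpsb2 and Cma1 at 0 counts in every pool. Endothelial markers, from cells known to carry FcRn, summed to between 150 and 267 CPM over all pools. The part of these cells in each member's change was not tested.

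The members were also set against the pan-myeloid markers, with libraries scaled to the mean log2 level of the 7 markers in place of all genes. On that scale the median of all genes fell by 4.10 in young and by 3.62 in middle-aged mice. In young mice 1.47% of genes were called higher and 92.9% lower, and in middle-aged mice 2.23% and 92.3%. The values below are relative to the markers. Fcgr2b rose beyond them, by 1.56 on the log2 scale in young (SE 0.35, adjusted p = 0.000187) and by 1.61 in middle-aged mice (SE 0.33, adjusted p = 7.47e-05). Fcgr4 did so by 2.31 (SE 0.51, adjusted p = 0.000182) and 3.04 (SE 0.50, adjusted p = 3.81e-06), or 4.03 without middle-aged naïve replicate 1. Fcgrt was lower than the markers' change by 3.59 in young (-3.59) and by 3.60 in middle-aged mice (-3.60). The other 6 members lay between -0.58 and 0.76 over both ages, with Fcer1g called higher (0.76, adjusted p = 0.0298) and Inpp5d called lower (-0.58, adjusted p = 0.0427) in young mice.

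The markers chosen set much of this. With Aif1, Csf1r and Spi1 only, 6 members were called higher at each age, and the 12 values of the other 6 members over both ages lay between 0.32 and 1.71, with 8 called higher. With the median of the 7 markers these 12 values all lay below 0, between -1.37 and -0.03, with 5 called lower, so the direction of these 6 members relative to the markers turned with the choice. With the median in place of the mean of the 7 markers, Fcgr4 alone was called higher in young mice, and Fcgr2b was at 0.76 (adjusted p = 0.0675) in young and 0.96 (adjusted p = 0.0177) in middle-aged mice. Fcgr2b, Fcgr4 and Fcgrt kept their direction under both. The share of all genes called with these other marker choices is not given here, so their counts cannot be read as particular to the members. In each pool, Fcgr2b was below the mean of the 7 markers in naïve tissue, by between 0.15 and 1.52 on the log2 scale (-1.52 to -0.15), and above it in injured tissue, by 0.39 to 1.34.

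Beyond the 9 members, other receptors for immunoglobulin were mostly under the filter. Of 14 other Fc receptor and Fc receptor-like genes, 4 were tested and 3 rose at both ages. Over all genes, 28.3% were called higher in young and 29.2% in middle-aged mice. Fcrls, a receptor-like gene typical of microglia, rose from 30.7 ± 4.99 to 723 ± 22.9 CPM in young mice (SD, n = 3; log2 4.56, adjusted p = 7.09e-09) and by 3.72 in middle-aged mice (adjusted p = 2.81e-08). Fcrl1, known from B cells, had between 2 and 11 counts in young naïve and between 716 and 1059 counts in young injured pools (log2 6.97, adjusted p = 6.31e-09). The B cell marker Cd79b moved with it, from 0 to 1 counts to 26 to 37 counts in young mice. Fcrl1 lies 5313 bases from Cd5l, a macrophage gene on the same strand that had at least 606 counts in every injured pool and at most 11 in the naïve pools, and whether reads of one gene were counted for the other was not tested. Trim21, the cytosolic antibody receptor, rose by 1.92 in young (adjusted p = 9.34e-05) and by 0.70 in middle-aged mice (adjusted p = 0.0424), and with age in naïve tissue by 1.51 (adjusted p = 0.0153). Cd247, a chain shared by T and natural killer cells, was not called in any of these.

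Transcripts of IgG, the ligand, were at or near the floor. Of 13 immunoglobulin chain genes, Ighm, the heavy chain of IgM, was the one tested, with 181 to 432 counts in naïve and 110 to 171 counts in injured pools. It fell after injury by 1.30 in young (-1.30, adjusted p = 0.000312) and by 1.51 in middle-aged mice (-1.51, adjusted p = 8.55e-05). The other 12 genes had at most 11 counts in any pool. Ighg1 and Ighg3, which encode the constant parts of IgG1 and IgG3, had 0 counts in all 12 pools. A count of 0 allows up to the floor of 3 counts per pool. Antibody that enters from blood leaves no transcript and was not measured.

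Downstream of the receptors, the 25 other kinases and adaptors moved largely with the members. In young mice 21 rose and 1 fell, against 28.3% and 26.3% of all genes, with a median log2 change of 3.47. In middle-aged mice 23 rose and 1 fell, against 29.2% and 29.3% of all genes, with a median of 3.26. The largest rises in young mice were those of Fgr, a Src family kinase of myeloid cells (5.08, from 1 to 8 counts in young naïve to 141 to 184 counts in young injured pools), Pik3ap1, an adaptor of phosphoinositide 3-kinase (4.74), and Lat2, a linker for activated leukocytes (4.68). The gene that fell was Fyn, a Src family kinase also found in oligodendrocytes and neurons, by 0.83 in young (-0.83, adjusted p = 3.53e-05) and by 0.47 in middle-aged mice (-0.47, adjusted p = 0.00336). Among the genes called at either age, next above Fyn in young mice were 2 genes called higher in middle-aged but not in young mice. The adaptor Gab2 had 0.27 in the young (adjusted p = 0.0646) and 0.49 in the older animals (adjusted p = 0.00214), and the exchange factor Vav3 had 0.29 (adjusted p = 0.346) and 1.29 (adjusted p = 0.000525). For neither was the difference between ages called (adjusted p = 0.711 and 0.329). With age in naïve tissue, 2.02% of all genes were called higher and 1.78% lower. The adaptor Lcp2 (1.09, adjusted p = 0.00521), Nckap1l (0.75, adjusted p = 0.0378) and Pik3cd (0.73, adjusted p = 0.0449) were among those called higher. Fyn was lower with age in both naïve (-0.91, adjusted p = 0.00105) and injured tissue (-0.55, adjusted p = 0.0382).

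Inhibitory partners other than the members were divided. Of 14 phosphatases, inhibitory receptors and adaptors, 13 were found by their symbol and tested. In young mice 10 rose and 1 fell, against 28.3% and 26.3% of all genes. In middle-aged mice 11 rose and 2 fell, against 29.2% and 29.3% of all genes. The median change of the 13 was 0.90 and 0.93, below that of the kinases and adaptors. The rises were led by Dok2, an adaptor that dampens kinase signals (from 0 to 2 counts in young naïve to 48 to 74 in young injured pools, adjusted p = 2.08e-05), Pirb, an inhibitory receptor (log2 4.17, adjusted p = 1.77e-08), and Dok3 (from 0 to 2 counts to 19 to 30 counts, adjusted p = 0.000116). No fold is given for Dok2 and Dok3 because their young naïve counts were under the floor of 3. Ptpn11, the widely expressed relative of Ptpn6, fell by 0.62 in young (-0.62, adjusted p = 0.000141) and by 0.70 in middle-aged mice (-0.70, adjusted p = 3.66e-05), and Inpp5k fell by 0.43 in middle-aged mice (-0.43, adjusted p = 0.0327), against -0.16 in young mice (adjusted p = 0.422). Inppl1, which encodes the relative SHIP-2, rose by 0.93 in middle-aged mice (adjusted p = 0.00588) and was at 0.24 in the young (adjusted p = 0.452), a difference between ages that was not called (adjusted p = 0.559). Sirpa, the receptor for the "don't eat me" signal CD47, was higher with age in naïve tissue (0.65, adjusted p = 0.00645).

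The genes most alike in pattern were sought over the 12 pools among 13076 genes, by Pearson's r of log2 CPM, as a description with no test since all pools share the injury contrast. For Fcgr2b these were Cd63 (r = 0.996), Mdfic (0.995) and Stom (0.995), and for Fcgr4 Tcirg1 (0.997), Rhoh (0.997) and Frrs1 (0.996). For Fcgr1 they were Myl12a (0.994), Cd72 (0.992) and Rps12 (0.990). Between 1820 and 2211 genes passed r = 0.9 for each of these 3 members, so a high value marks the injury response at large. For Fcgrt no gene passed 0.9, and the nearest were Vps16 (0.894), Pum3 (0.890) and Tdp1 (0.870).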

How the data were processed

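RNA from 12 pools of laser-captured white matter, 3 per group, was amplified, with the REPLI-g protocol per the methods, and sequenced on an Illumina platform. Per the submitters' processing notes and the labels, reads were checked with FastQC 0.11.4 and mapped to GRCm38 with TopHat2 2.0.10 and Bowtie 1.1.2. The authors deposited raw counts of reads per gene from featureCounts, without normalization. The annotation release, the strand setting and the treatment of shared reads are not given in the sources used here. Groups and replicate numbers came from the sample labels. Of 46078 identifiers, 45143 had a symbol. Totals were 9834447 to 12807437 counts per pool, and intervals and floors (3 counts) cover counting error only.

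Counts were tested in R 4.3.3 with edgeR 4.0.16 (TMM scaling, the filterByExpr filter, and the quasi-likelihood functions glmQLFit and glmQLFTest). A single model of 4 group means covered all 12 pools, and p-values were adjusted by Benjamini-Hochberg over 15866 genes at a threshold of 0.05. DESeq2 1.42.0, which the study used, served as an alternative. CPM are TMM-normalised. Log2 CPM used a prior count of 2 and log2 ratios a pseudocount of 0.5. Ratios of counts to Fcgr2b were compared by 2-sided exact permutation of the labels within each age. The members and gene lists were chosen with earlier results of these data known. The text names the 9 members. From each list of pathway genes it names the top and bottom 3 by log2 change after injury in young mice among genes called at either age, and the members of a list of 3 or fewer calls. It also names the 3 genes most alike in pattern to each of Fcgr1, Fcgr4, Fcgr2b and Fcgrt. Alternatives were other scalings, filters, DESeq2, a replicate block, only the pools compared, other markers and each pool left out in turn. The edgeR and permutation steps were tested on simulated data. No column of counts was left out. The result for 1 further motif is not reported here.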

Additional observations from a re-analysis of the deposited data

How the results depend on the processing

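The count of members raised by injury was 8 at both ages in all alternatives, except 9 in young mice with library totals only and with only the 6 pools compared. The age and interaction counts were less stable. For age in naïve mice, 5 members and 717 genes were called higher with no filter on low counts, 0 members and 26 genes with only the 6 pools compared, and 597 genes by DESeq2. Leaving out 1 pool gave 1 to 5 members and 136 to 484 genes. For age in injured mice the counts were 2 members and 121 genes with no filter, 2 and 325 with only the 6 pools, 2 and 140 by DESeq2, and 0 to 1 members and 6 to 36 genes with 1 pool left out. For the difference of injury effects, 1 member and 329 genes were called with no filter, 228 genes by DESeq2 and 3 to 56 genes with 1 pool left out. Members called higher against the pan-myeloid markers were 6 and 6 with 3 markers, 1 in young mice with the median, and 2 to 3 in young mice with 1 pool left out. The shares of all genes called under these marker settings are not given here.

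Among the differences of single members, signs turned only for those without a call by edgeR in all 12 pools. The difference of injury effects of Fcgr3 (-0.00371) was 0.00601 with DESeq2's size factors, 0.00663 with no filter and 0.00786 by DESeq2. With 1 pool left out, the ranges that crossed 0 were -0.97 to 0.0922 for Fcgr1, -0.16 to 0.11 for Fcgr3, -0.20 to 1.03 for Fcgr4 and -0.78 to 0.00526 for Syk (difference of injury effects), -0.49 to 0.74 for Fcgr4 (age, naïve), -0.27 to 0.0358 for Fcgrt and -0.0662 to 0.24 for Inpp5d (age, injured), and -0.0794 to 0.30 for Fcgrt (injury, middle-aged). The cause was not tested.

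Same-numbered pools are other mice, so the numbers do not pair animals. Deviations of same-numbered pools from their group means correlated between -0.113 and 0.153. Differently numbered pools were not set beside them, so this range cannot decide whether same-numbered pools were processed together. The replicate block changed no edgeR call of a member. Under it the ratio of Fcgr4 to Fcgr2b (1.06) had an adjusted p of 0.125 by the exact permutation test, and with 1 pool left out it ran from 0.716 to 1.30. Pools of 3 per group and counts of 2 to 9 limit what can be said of Fcgr4 in naïve tissue.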
